A study of Mus musculus with 4 samples.

Results

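The 10 NK cell cytotoxicity genes Prf1, Gzma, Gzmb, Nkg7, Ncr1, Klrk1, Klrd1, Klre1, Klrb1c and Eomes were followed through 4 libraries of lung CD11b+Ly6g+ myeloid-derived suppressor cells (MDSCs). The rule that picks them is a list of symbols, and all 10 of 10 were found among the 54532 genes of the count table. The cells came from C57BL/6 mice of 6 to 8 weeks with a pre-metastatic niche (PMN), the state of the lung before tumor cells settle. Every mouse, control mice included, was injected intraperitoneally with 300 μL of MCM, conditioned medium of the mouse melanoma line B16F10, on 10 consecutive days, and 100000 B16F10 cells went into the tail vein on day 7. The control mice, labelled untreated, carried the model without a peptide. The other mice received TP5, sFD17 or FR17 under the skin from day 3 at 40 μM/kg per day, and all lungs were taken on day 10. TP5 is free thymopentin, an immunomodulatory pentapeptide. FR17 joins TP5 through a linker cut by the protease MMP2 to a part that self-assembles, while in sFD17 the order of residues in the TP5 stretch is shuffled. Each group was 1 library from the pooled cells of 10 to 12 mice, and a lung without MCM was not analysed here. No difference below therefore has a replicate check. The intervals in parentheses are exact 95% intervals of the counts and cover counting error only.

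Natural killer (NK) cells are innate lymphocytes that kill infected or transformed cells, and in the lung they meet tumor cells that arrive through the blood. Activating and inhibitory receptors on the NK cell surface weigh the ligands of a target cell. When activation prevails, granules are released toward the target, perforin opens the way through its membrane and granzymes start its death. CD8 T cells, gamma-delta T cells and NKT cells use many of the same genes. The sort named in the labels took cells by CD11b and Ly6g. Mature mouse NK cells carry CD11b, while Ly6g marks granulocytes. In bulk libraries, fewer cells of a type and less RNA per cell cannot be told apart, so a lower count of these genes describes the library and not a cell.

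The 10 genes held 844 of the 17132880 counts in control, 787 of 17165184 with TP5, 622 of 15543071 with sFD17 and 3100 of 19638228 with FR17. Counts were scaled with TMM factors from 0.849 in sFD17 to 1.17 in FR17, and the scaled level is given as CPM, counts in every 1000000 of the scaled library. Summed over the 10 genes it was 49.97 CPM in control, 44.9 with TP5, 47.1 with sFD17 and 135 with FR17. All 10 genes had their highest level in FR17. The lowest level was found in TP5 for 5 genes, in sFD17 for 3 and in control for 2, so the remaining 3 libraries shared no common order. The sum in FR17 was 2.70 times that in control (2.50 to 2.92), 2.87 times that in sFD17 (2.63 to 3.13) and 3.01 times that in TP5 (2.78 to 3.26). The sum in TP5 was 0.898 times control (0.814 to 0.991) and that in sFD17 0.943 times control (0.849 to 1.05). Without Gzma, the gene of the 10 with the most counts in all, the ratio of TP5 to control was 1.03.

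**Figure D1:**
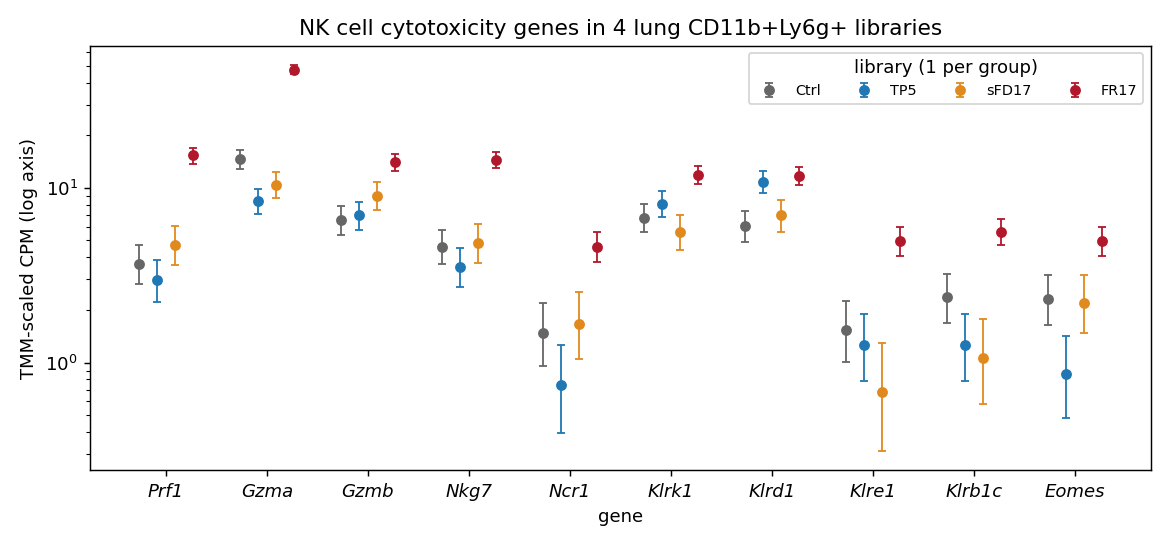
Scaled level of each gene in each library, as TMM-scaled CPM on a log axis, with exact 95% counting intervals and 1 library per group. The FR17 point is the highest for all 10 genes, by the least for Klrd1, whose FR17 and TP5 intervals overlap.

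A gene was counted as changed between 2 libraries when its log2 fold change, computed with a prior count of 2, was at least 1 or at most −1, a 2-fold difference. All 10 genes had at least 10 counts in at least 1 library, the minimum for a gene to be tested, and 9 had at least 10 in every library. The exception, Klre1, had 9 counts in sFD17. Among the 16367 genes tested, 3.91% were at least 2-fold higher in FR17 than in control and 3.57% at least 2-fold lower. Of the 10 NK genes, 8 were at least 2-fold higher, 0 were lower, and Klrd1 and Klrk1 were below the 2-fold line. With library size alone in place of TMM factors, all 10 were past it (Klrd1 at 1.19 and Klrk1 at 1.04 on the log2 scale), beside 6.66% of all genes higher and 1.93% lower. Their median log2 fold change was 1.39, beside 0.02 over all genes tested. The study took p-values from the negative binomial distribution. Here the exact test of edgeR, which rests on that distribution, was also run between pairs of libraries, at an unadjusted p under 0.05. It compares those libraries, not the treatments. By this test 0.813% of all genes were higher in FR17 than in control, and 5 of the 10 NK genes were, namely Prf1, Gzma, Nkg7, Ncr1 and Klre1. After Benjamini-Hochberg adjustment 0 of the 16367 genes were called in this pair, and at an unadjusted p under 0.05 the Wald test of DESeq2 called 0.244% of all genes and 0 of the 10.

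Among the granule genes, Prf1 had the largest ratio of FR17 to control, and so it did among all 10. Prf1 (ENSMUSG00000037202, chromosome 10 from 61297833 to 61304680, GRCm38) encodes perforin, the pore-forming protein of the granule. It had 62 counts in control, 52 with TP5, 62 with sFD17 and 352 with FR17. FR17 alone was high, and neither TP5 nor sFD17 could be told from control at this depth, although sFD17 was 1.58 times TP5 (1.08 to 2.34). FR17 stood at 15.3 CPM, 4.18 times control (3.18 to 5.56). Gzma (ENSMUSG00000023132, chromosome 13 from 113093825 to 113100981) encodes granzyme A, a serine protease that cuts after basic residues. It had 247 counts in control, 147 with TP5, 137 with sFD17 and 1090 with FR17. Here TP5 and sFD17 were both below control, at 0.573 (0.464 to 0.706) and 0.710 times (0.572 to 0.878), while FR17 was 3.25 times control (2.83 to 3.74). Gzmb (ENSMUSG00000015437, chromosome 14 from 56258838 to 56262260) encodes granzyme B, which cuts after aspartate and activates caspases. Its counts were 111 in control, 122 with TP5, 119 with sFD17 and 321 with FR17. In FR17 granzyme B had the smallest ratio to control among the granule genes, at 2.13 (1.71 to 2.66). In sFD17 it was 1.37 times control (1.05 to 1.79). Nkg7 (ENSMUSG00000004612, chromosome 7 from 43437073 to 43438249) encodes a granule membrane protein needed for efficient degranulation. It had 78 counts in control, 62 with TP5, 64 with sFD17 and 333 with FR17, which was 3.14 times control (2.45 to 4.07). The other 3 libraries could not be told apart for Nkg7 at this depth.

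The windows around the transcription starts of the NK genes were read for their sequence. RefSeq windows of 300 bases, 250 before and 50 after the start, were at hand for 9 of the 10 genes on build GRCm38.p6, and Klrd1 had none. Of the 9 genes 8, all except Eomes, hold the RUNX core TGTGGT or its reverse complement ACCACA. It is in 9 of their 11 windows, since Klre1 and Ncr1 have 2 starts each, and in 16.8% of all 32851 windows of this length. RUNX factors, of which Runx3 is the form best known in cytotoxic lymphocytes, bind such a core. The T-box core GGTGTGA, searched on both strands and of the kind bound by Eomes and T-bet, is in the window of 1 of the 9 genes, Nkg7, and in 3.98% of all windows. The ETS core CCGGAA, on both strands, is in 0 of the 9 and in 14.9% of all windows. None of these matches overlap. They are descriptions of letters, not binding sites. Windows of 2 granule protease or pore genes, of the granule membrane gene and of 1 receptor gene follow, with RUNX and T-box cores in capitals.
Prf1, chr10:61297586-61297885, plus strand: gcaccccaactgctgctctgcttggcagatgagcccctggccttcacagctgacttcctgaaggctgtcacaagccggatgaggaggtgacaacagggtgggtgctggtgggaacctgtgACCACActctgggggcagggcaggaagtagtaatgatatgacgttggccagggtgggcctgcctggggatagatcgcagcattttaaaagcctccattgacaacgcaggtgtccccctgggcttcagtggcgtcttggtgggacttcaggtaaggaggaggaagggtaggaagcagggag
Gzma, chr13:113100932-113101231, minus strand: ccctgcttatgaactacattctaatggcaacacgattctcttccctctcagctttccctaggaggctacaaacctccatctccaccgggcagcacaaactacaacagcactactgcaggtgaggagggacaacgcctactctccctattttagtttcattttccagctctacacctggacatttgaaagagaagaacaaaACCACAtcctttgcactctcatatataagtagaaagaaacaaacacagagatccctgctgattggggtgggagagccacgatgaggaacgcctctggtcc
Nkg7, chr7:43436888-43437187, plus strand: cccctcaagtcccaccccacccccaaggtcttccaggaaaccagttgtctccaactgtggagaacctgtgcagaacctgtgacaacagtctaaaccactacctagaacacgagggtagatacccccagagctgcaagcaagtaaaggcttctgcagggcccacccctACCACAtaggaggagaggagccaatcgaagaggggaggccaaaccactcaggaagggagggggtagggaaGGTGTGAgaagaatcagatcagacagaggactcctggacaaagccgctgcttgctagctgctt
Ncr1, chr7:4337465-4337764, plus strand: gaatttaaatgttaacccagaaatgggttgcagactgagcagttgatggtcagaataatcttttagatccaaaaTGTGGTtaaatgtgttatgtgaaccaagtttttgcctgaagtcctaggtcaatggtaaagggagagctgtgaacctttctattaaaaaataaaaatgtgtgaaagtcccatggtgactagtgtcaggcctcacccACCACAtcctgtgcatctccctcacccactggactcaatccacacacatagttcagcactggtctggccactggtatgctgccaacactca
The RUNX core begins 130 bases before the start in Prf1, 50 in Gzma, 83 in Nkg7, and 176 and 41 in Ncr1. The T-box core of Nkg7 begins 13 bases before its start. Gzmb, whose window is not printed, has RUNX cores at 93 and 34 bases before the start. Klrk1, the gene with the smallest ratio of FR17 to control, has one at 129 bases.

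Of the 5 receptor genes, Ncr1, Klre1 and Klrb1c had ratios of FR17 to control within the range of the granule genes. Ncr1 (ENSMUSG00000062524, chromosome 7 from 4337724 to 4345164) encodes NKp46, an activating receptor that is among the most NK-restricted surface proteins of the mouse. It had 25 counts in control, 13 with TP5, 22 with sFD17 and 106 with FR17. FR17 was 3.12 times control (2.00 to 5.04), and the intervals of TP5 and sFD17 against control both included 1. Klre1 (ENSMUSG00000050241, chromosome 6 from 129577905 to 129585827) encodes a lectin-like receptor of NK cells. Its counts were 26 in control, 22 with TP5, 9 with sFD17 and 114 with FR17. FR17 was again high, at 3.23 times control (2.09 to 5.15), and sFD17 was low, at 0.443 times control (0.183 to 0.976). Klrb1c (ENSMUSG00000030325, chromosome 6 from 128778485 to 128789215) encodes NK1.1, the antigen by which C57BL/6 NK cells are usually gated. It had 40 counts in control, 22 with TP5, 14 with sFD17 and 129 with FR17. Klrb1c was below control in both TP5 (0.530 times, 0.300 to 0.913) and sFD17 (0.448 times, 0.225 to 0.841), and 2.37 times control in FR17 (1.65 to 3.47). Of its 2961 exon bases, 413 are also annotated to Gm44511, which has its direction and 0 counts in all 4 libraries.

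Klrd1 and Klrk1 had the smallest ratios of FR17 to control, and only Klrd1 was above control in TP5 beyond its counting interval. Klrd1 (ENSMUSG00000030165, chromosome 6 from 129591782 to 129598775) encodes CD94, the partner chain of the NKG2 receptors. It had 102 counts in control, 190 with TP5, 92 with sFD17 and 269 with FR17. Both FR17 and TP5 were high here, FR17 at 1.94 times control (1.54 to 2.46) and TP5 at 1.79 times (1.40 to 2.30), and the ratio of FR17 to TP5 was 1.08 (0.895 to 1.31). Klrk1 (ENSMUSG00000030149, chromosome 6 from 129610323 to 129623864) encodes NKG2D, an activating receptor for stress-induced ligands. It had 114 counts in control, 142 with TP5, 74 with sFD17 and 272 with FR17. FR17 was 1.76 times control (1.41 to 2.20), and FR17 alone was high. TP5 was 1.20 times control (0.931 to 1.55). Klre1, Klrd1 and Klrk1 are neighbors in the NK gene complex, with 5954 bases between Klre1 and Klrd1 and 11547 between Klrd1 and Klrk1. Klre1 and Klrd1, the closest pair, stood at 0.815 and 1.79 times control in TP5. In the same TP5 library the 7 dendritic cell markers summed to 1.75 times control (1.67 to 1.83), with Flt3, Xcr1 and Clec9a at 688, 104 and 153 counts against 271, 40 and 117 in control. Markers of group 2 innate lymphoid cells stood at 1.59 times control in TP5 (1.45 to 1.75, 5 of 6 tested higher), of B and plasma cells at 1.54 (1.46 to 1.62, 7 of 8) and of lung epithelium at 1.495 (1.46 to 1.53, 3 of 4). Of the other lists, platelets stood at 0.424 times control in TP5 (1 of 4 tested lower), red blood cells at 0.476 (4 of 4) and fibroblasts at 0.537 (4 of 4). The remaining lists stood between 0.806, for macrophages (10 of 11 lower), and 1.06. The part of these lists in the levels of Klrd1 and the other NK genes in TP5 was not tested.

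Eomes (ENSMUSG00000032446, chromosome 9 from 118478212 to 118486132) encodes a T-box transcription factor of mature NK cells and of CD8 T cells. It had 39 counts in control, 15 with TP5, 29 with sFD17 and 114 with FR17. FR17 was 2.15 times control (1.48 to 3.18). TP5 was low, at 0.370 times control (0.190 to 0.687), and Eomes was the gene of the 10 with the largest difference in TP5. The antisense gene Gm33460 covers 118 of its 4155 exon bases and had at most 1 count in a library.

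**Figure D2:**
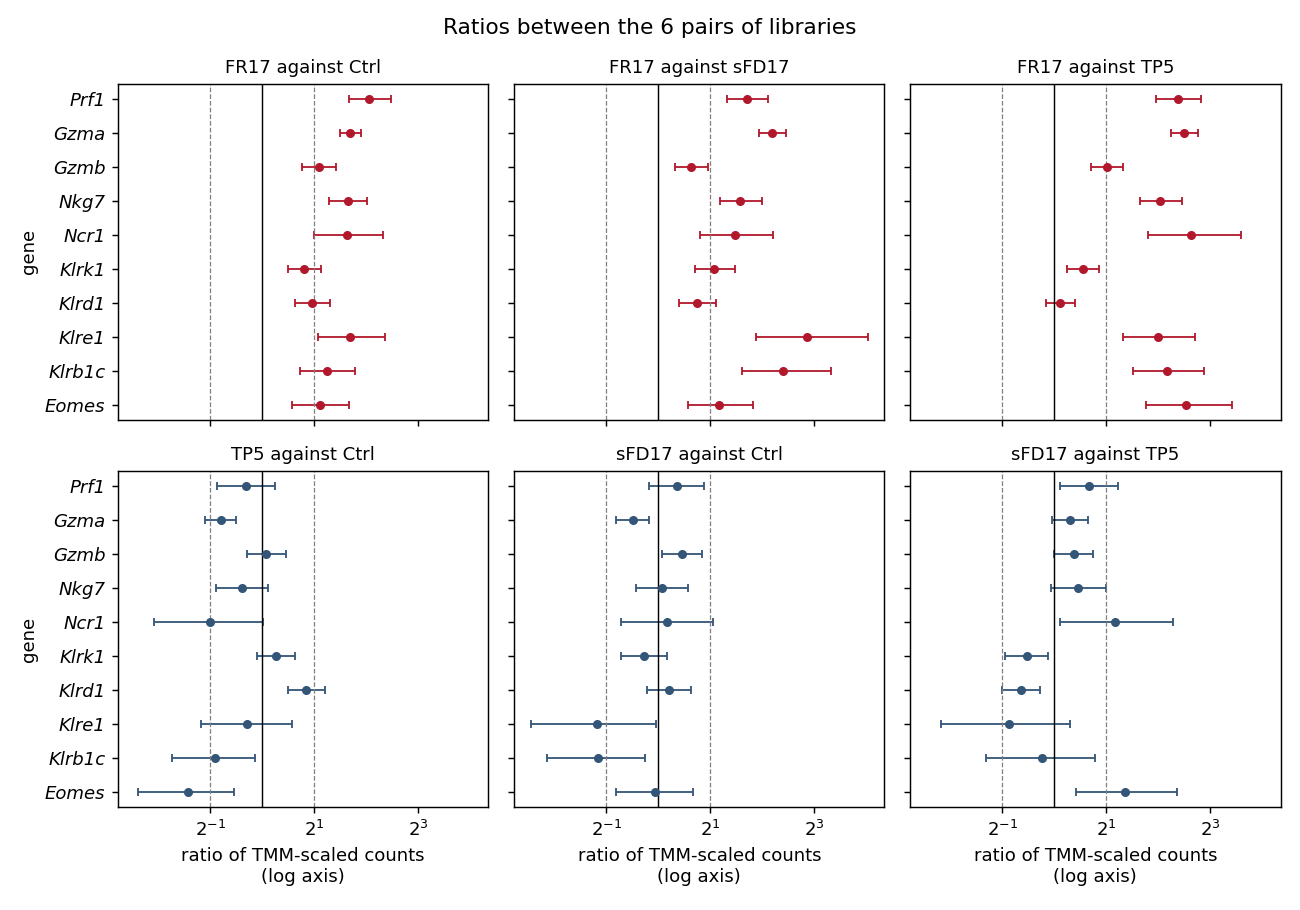
Ratio of TMM-scaled counts of each gene for the 6 pairs of libraries on a log axis, with exact 95% counting intervals; dashed lines mark 2-fold. In the upper panels, all with FR17 first, every ratio is above 1, while the lower panels scatter to both sides of 1.

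The peptides were given at the same dose and for the same days, so their libraries can be compared directly in 3 pairs besides the 3 against control. FR17 and sFD17 differ by the order of residues in the TP5 part. Of all genes tested, 11.3% were at least 2-fold higher in FR17 than in sFD17 and 10.8% at least 2-fold lower. Of the NK genes 8 were higher and 0 lower, with Gzmb at 1.55 times (1.25 to 1.93) and Klrd1 at 1.68 times (1.32 to 2.15) below the 2-fold line. With library size alone all 10 were past it, beside 25.7% of all genes higher and 4.78% lower. The largest ratios were those of Klre1, at 7.28 (3.70 to 16.3), of Klrb1c, at 5.30 (3.05 to 9.96), and of Gzma, at 4.57 (3.83 to 5.50). The exact test called 5.64% of all genes higher in this pair and 5 of the 10, namely Prf1, Gzma, Nkg7, Klre1 and Klrb1c. After Benjamini-Hochberg adjustment 2 of these 5 and 2.26% of all genes were called. Markers of other cells moved in the same pair. Summed over each list, FR17 against sFD17 stood at 4.87 for platelets (3 of 4 tested markers higher), 4.09 for gamma-delta T cells (6 of 6), 3.52 for macrophages (11 of 11), 2.74 for T cells (11 of 11) and 2.61 for red blood cells (4 of 4), beside 2.87 for the 10 genes. The NK lineage list stood at 1.85 (11 of 12) and the remaining lists between 0.582 and 1.49, neutrophils at 0.602 among them. The median log2 fold change of the NK lineage list was 1.49 in this pair, beside 1.48 for the 10 genes. The part of these markers in the difference was not tested. FR17 and TP5 differ by the linker and the assembling part. Of all genes, 7.04% were at least 2-fold higher in FR17 than in TP5 and 2.88% at least 2-fold lower, beside 7 and 0 of the NK genes. Scaled by library size alone, 8 were higher, beside 9.77% of all genes higher and 1.92% lower. Gzmb had a log2 fold change of 1.00 after rounding and lay just under the line, at 2.01 times (1.63 to 2.50). Ncr1 had the largest ratio, 6.23 (3.49 to 12.1), followed by Eomes at 5.81 (3.38 to 10.7) and Gzma at 5.67 (4.77 to 6.78). The exact test called 2.93% of all genes higher in FR17 than in TP5, and 7 of the 10, all but Gzmb, Klrd1 and Klrk1. After Benjamini-Hochberg adjustment over all genes 1 of these 7 and 0.0916% of all genes were called. In this pair the marker sums stood at 3.60 for gamma-delta T cells, 3.34 for red blood cells, 3.08 for platelets and 2.11 for T cells, with every tested marker of these lists higher, beside 3.01 for the 10 genes. They were 1.94 for fibroblasts (4 of 4 higher), 1.70 for the NK lineage list (11 of 12), 1.60 for macrophages (11 of 11), 1.56 for eosinophils with mast cells and basophils (9 of 10) and 1.55 for endothelium (5 of 5). The remaining lists stood between 0.753 and 1.00, neutrophils at 0.817 among them. The median log2 fold change of the NK lineage list was 1.23 here, beside 2.04 for the 10 genes. The part of these markers was likewise not tested.

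Against control, neither TP5 nor sFD17 had an NK gene that was at least 2-fold higher, where 3.19% of all genes were in TP5 and 5.32% in sFD17. In TP5 only Eomes was at least 2-fold lower, 1 of 10 beside 4.99% of all genes. In sFD17 Klrb1c and Klre1 were at least 2-fold lower, 2 of 10 beside 6.47% of all genes, on 14 and 9 counts. Scaled by library size alone, 2 of 10 were lower again, beside 3.54% of all genes higher and 9.37% lower. The median log2 fold change of the 10 genes was −0.34 in TP5 and 0.00 in sFD17, the latter −0.21 with library size alone. Between sFD17 and TP5, 6.74% of all genes were at least 2-fold higher in sFD17 and 5.64% at least 2-fold lower. Of the NK genes 2 were higher, Eomes at 2.57 times (1.33 to 5.16) and Ncr1 at 2.25 times (1.08 to 4.86), and 0 were lower. With library size alone 1 was higher and 1 lower, beside 4.33% and 10.1% of all genes. Marker sums in this pair were 0.454 for macrophages (10 of 11 lower) and 0.615 for dendritic cells (7 of 7 lower). They were 1.36 for neutrophils (11 of 11 higher) and 1.60 for fibroblasts (4 of 4 higher), beside 1.05 for the 10 genes. The remaining lists stood between 0.632 and 1.39. The part of these markers was not tested. The 3 comparisons with control share the control library, and the pairs of peptides share libraries too, so their values are not independent of one another.

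The genes also differed in how the counts were divided among them. The 4 granule genes together held 498 counts in control, 383 with TP5, 382 with sFD17 and 2096 with FR17, and the 5 receptor genes 307, 389, 211 and 890 in the same order. There were 1.62 granule gene counts per receptor gene count in control (1.40 to 1.88), 0.985 with TP5 (0.853 to 1.14), 1.81 with sFD17 (1.53 to 2.15) and 2.36 with FR17 (2.18 to 2.55). TP5 was thus the lowest and FR17 the highest, while the intervals of control and sFD17 overlapped. The place of FR17 rests on Gzma, since without it the ratio was 0.818 in control, 0.607 with TP5, 1.16 with sFD17 and 1.13 with FR17. Without Klrd1 it was 2.43, 1.92, 3.21 and 3.38 in that order. There the intervals of sFD17 (2.61 to 3.98) and FR17 (3.08 to 3.70) overlapped, so the separation of FR17 from sFD17 rests on Klrd1 too. With either gene left out the intervals of TP5 and control overlapped (0.514 to 0.715 against 0.689 to 0.969 without Gzma, 1.62 to 2.30 against 2.06 to 2.87 without Klrd1). Relative to control, the granule genes stood at 3.10 (2.81 to 3.42) and the receptor genes at 2.13 (1.87 to 2.44) in FR17. In TP5 the same sums were 0.741 (0.647 to 0.848) and 1.22 (1.05 to 1.42) times control. The receptor sum above control rests on Klrd1, without which it was 0.935 times control (0.765 to 1.14). Without Gzma the granule sum was 0.905 times control (0.755 to 1.09), which includes 1. Counts of Gzma per count of Gzmb were 2.23 in control (1.77 to 2.81), 1.20 with TP5 (0.941 to 1.54), 1.15 with sFD17 (0.894 to 1.48) and 3.40 with FR17 (3.00 to 3.86). Granzyme A therefore outweighed granzyme B most in FR17, and in TP5 and sFD17 the intervals included equal counts.

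**Figure D3:**
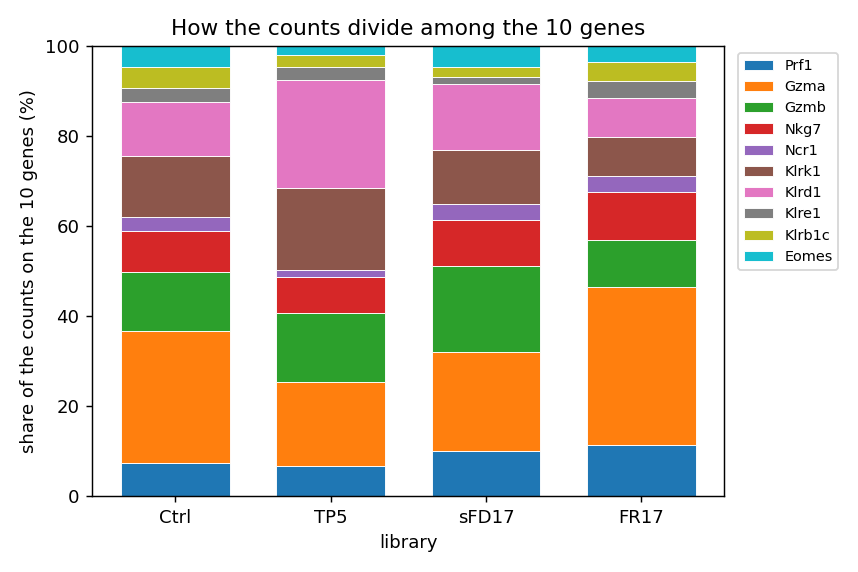
Share in percent of the counts on the 10 genes that falls on each gene, 1 bar per library, which adds to 100%. Gzma takes 35.2% in FR17 and 18.7% in TP5, where Klrd1 takes 24.1%.

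Levels of different genes were compared as scaled counts per kilobase of gene length, that is CPM per kb. In FR17 the order was Gzma at 47.2 CPM per kb, Nkg7 at 15.9, Gzmb at 9.74, Klrd1 at 9.15, Prf1 at 5.93, Ncr1 at 3.00, Klrb1c at 1.90, Klrk1 at 1.65, Klre1 at 1.42 and Eomes at 1.20. Gzmb and Klrd1 overlapped in their counting intervals, and so did each neighboring pair from Klrb1c to Eomes. In control Gzma led at 14.5 CPM per kb, and Nkg7, Klrd1 and Gzmb followed at 5.05, 4.71 and 4.58 without being separable. TP5 was the library in which Gzma did not lead, with Klrd1 at 8.46 and Gzma at 8.33 CPM per kb, which overlapped. Klrk1 has a long gene model of 7183 bases.

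Genes of the same pathway were then read from 8 lists by role, with 112 genes, none of them among the 10. Of these, 108 were in the table and 96 were tested. In FR17 against control 31 of the 96 (32.3%) were at least 2-fold higher and 1 was lower, beside the 3.91% and 3.57% of all genes given above. In TP5 3 were higher (3.13%) and 4 lower, beside 3.19% and 4.99% of all genes, and in sFD17 5 (5.21%) and 7, beside 5.32% and 6.47%, so these counts were near the shares of all genes. Of the 31 genes, 15 were other NK receptors. The summed counts of a list follow its most abundant genes, which can differ from its median. Against control in FR17 the sum was 0.778 times for adaptors, 0.694 for granule contents and release, 0.861 for death ligands and secreted effectors, 0.900 for transcription factors, 0.898 for cytokine and trafficking receptors, 0.962 for ligands and 1.55 for granzyme inhibitors. The medians of all these lists except granule contents and release were above 0. With library size alone that list's median was 0.10, and 36 of the 96 genes were at least 2-fold higher in FR17 and 0 lower, beside 6.66% and 1.93% of all genes. These sums depend on the scaling. With library size alone they were above control for death ligands and secreted effectors (1.02), transcription factors (1.07), cytokine and trafficking receptors (1.06) and ligands (1.14), an alternative chosen after seeing the data.

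Among 27 other NK receptor genes tested, 15 were at least 2-fold higher in FR17 than in control and 0 lower, with a median log2 fold change of 1.10. In this and the other lists, a gene with few counts in control can enter the test through the library where it is high. Klra7, a receptor of the Ly49 family, had 12 counts in control, 16 with TP5, 14 with sFD17 and 79 with FR17. Cd96, a receptor for nectin-like ligands, had 12, 16, 16 and 77, and Klrc1, which encodes the inhibitory NKG2A, had 19, 14, 7 and 101. These 3 genes were high in FR17 alone. Klra8 encodes Ly49H, an activating receptor, and Klra4 an activating receptor of the same family. Klra8 had 34 counts in control and 155 in FR17, and Klra4 30 and 116. Ly49 genes resemble one another, so reads may have been divided differently among them. The sum over this list was nevertheless 0.947 times control in FR17 (0.909 to 0.988), and its most abundant genes in control, Cd244a, Slamf7 and Klra17, had log2 fold changes of −0.83, −0.01 and −0.55 there. By library size alone this sum was 1.12 times control, and Slamf7 was above control.

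Of the 13 tested adaptor and signalling genes, 4 were at least 2-fold higher in FR17 and 0 lower. Lck, Lat and Zap70, which relay signals in T and NK cells, had log2 fold changes of 1.27, 1.24 and 1.21. Tyrobp and Fcer1g, adaptors that NK cells share with myeloid cells, had 23894 and 10556 counts in control and log2 fold changes of −0.37 and −0.23, and with library size alone Fcer1g was not below control. Among 11 other genes of granule content and release 0 were past 2-fold in either direction, and with library size alone 1 was, Ctsw, at 2.22 times control. The largest differences there were Ctsw, a cathepsin of cytotoxic lymphocytes, at 80 counts in control, 37 with TP5, 37 with sFD17 and 204 with FR17 (0.89 on the log2 scale against control), Lyst at −0.74 and Srgn at −0.73. The granzyme genes Gzmd, Gzme, Gzmf, Gzmg and Gzmn had 0 counts in every library, which allows at most 0.227 CPM in the shallowest library, sFD17. Gzmc and Gzmk had at most 8 counts.

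Of 10 death ligand and secreted effector genes, 4 were at least 2-fold higher in FR17 and 0 lower. Fasl, which encodes the ligand of the death receptor Fas, had 17 counts in control, 19 with TP5, 21 with sFD17 and 66 with FR17. Ifng, the interferon of NK and T cells, had 15, 17, 23 and 56, and Ccl5, a chemokine stored by both, had 387, 268, 554 and 1339. Fasl, Ifng and Ccl5 were highest in FR17 and next highest in sFD17, and the sFD17 median of the list was 0.84 against 0.75 in FR17. Of 9 further transcription factors 3 were at least 2-fold higher in FR17. Tbx21, which encodes T-bet, had 54 counts in control and 168 in FR17, while Ets1 and Nfil3, which myeloid cells express too, had log2 fold changes of 0.37 and −0.47. Runx3 had a log2 fold change of 0.07. Of 12 cytokine and trafficking receptors 2 were at least 2-fold higher, Cxcr6 (42 counts in control and 197 in FR17) and Il2rb (324 and 1125), the chain shared by the receptors of interleukins 2 and 15. Il12rb1 came next, with a log2 fold change of 0.96.

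Of 10 tested ligands that NK receptors recognize, 0 were at least 2-fold higher in FR17 and 1 was lower, H60b, a ligand of NKG2D, with 125 counts in control, 93 with TP5, 141 with sFD17 and 80 with FR17. Its ratio to control was 0.471, and 0.558 with library size alone, which is less than a 2-fold difference. Cd48 and Nectin2 had log2 fold changes of 0.28 and 0.25. Of the 4 serpin genes listed as granzyme inhibitors 3 were at least 2-fold higher in FR17. Serpinb6b had 61 counts in control, 92 with TP5, 47 with sFD17 and 275 with FR17, and Serpinb9, which blocks granzyme B, 134, 176, 123 and 379. Serpinb6a, the most abundant of them, had 1024 counts in control, 286 in sFD17 and 1894 in FR17, with a log2 fold change of 0.44 in FR17. The list held 1223 counts in control, so its summed ratio of 1.55 mainly follows Serpinb6a.

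**Figure D4:**
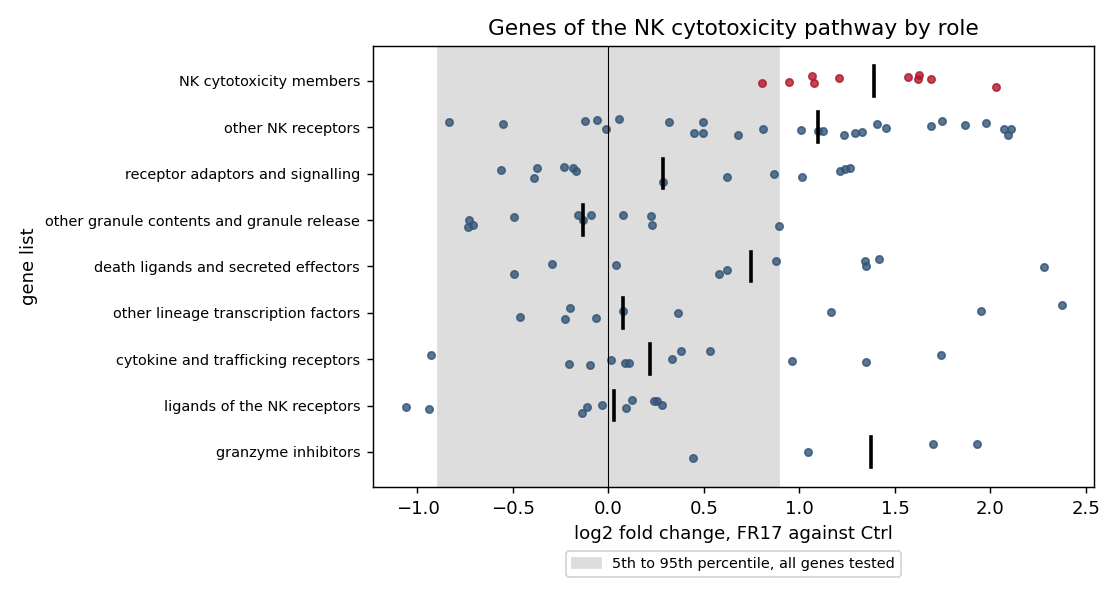
Log2 fold change, FR17 against control, of each tested gene in the 10 genes (red) and in 8 lists of the pathway by role (blue), with the list median as a black bar; the grey band spans the 5th to 95th percentile of all genes tested. The 10 genes and the granzyme inhibitors have medians of 1.39 and 1.37, and the granule release and ligand lists have medians of −0.13 and 0.03.

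The genes outside the 10 whose log2 fold changes against control came nearest to the 10-gene median were Cytl1, Ctla2a, Il2rb, Sh2d2a and Fbln5, at a root mean square difference of 0.09, 0.09, 0.15, 0.17 and 0.18 over the 3 comparisons. They were drawn from 11978 genes with at least 50 counts in a library. Ctla2a had 64 counts in control, 52 with TP5, 45 with sFD17 and 222 with FR17, and Sh2d2a, an adaptor of T and NK cells, 148, 132, 102 and 462. Of the 10 genes Nkg7 was nearest to the median, at 0.15, and Klrd1 farthest, at 0.73.

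Marker genes of other cells were read beside these results. The neutrophil markers had the largest sum of the 15 marker lists in every library, at 2.82% to 3.40% of its counts. Among them S100a9 had 171891 to 207783 counts, S100a8 94860 to 117996 and Ly6g 1234 to 2081. The 11 neutrophil markers summed to 0.768 times control in FR17, 0.941 times in TP5 and 1.28 times in sFD17. In FR17 10 of them were lower than in control and Ly6g was higher, at 1.24 times. With library size alone the FR17 sum was 0.911 times control, and S100a8 and S100a9 were above control, at 1.09 and 1.02 times. NK lineage genes that are not among the 10 summed to 1.80 times control in FR17 (1.69 to 1.92), 1.06 in TP5 and 0.973 in sFD17, and 9 of the 12 were at least 2-fold higher in FR17. All 12 of these also belong to the role lists above. T cell markers moved with the 10 genes in FR17. All 11 were higher than in control, 3 of them at least 2-fold, and their sum was 1.80 times control (1.68 to 1.94). Cd3e had 31 counts in control, 37 with TP5, 25 with sFD17 and 153 with FR17, and Cd3d and Cd3g had 96 and 51 in control and 178 and 198 in FR17. All 6 gamma-delta T cell markers were at least 2-fold higher in FR17, with a sum of 3.70 times control (3.09 to 4.46). Trdc had 15 counts in control and 94 in FR17, Tcrg-C1 11 and 68, and Tcrg-C2 3 and 45. There were 0.811 counts on the 10 genes per T cell marker count in control (0.740 to 0.889), 0.852 with TP5 (0.773 to 0.938), 1.16 with sFD17 (1.03 to 1.31) and 1.22 with FR17 (1.15 to 1.28). The denominator differed too, since the T cell markers summed to 0.658 times control in sFD17 (0.592 to 0.731, 7 of 11 lower) and 0.855 times in TP5 (0.781 to 0.935, 5 of 11 lower). Per count of the NK lineage genes outside the 10 there were 0.597 in control (0.548 to 0.651), 0.505 with TP5 (0.463 to 0.551), 0.579 with sFD17 (0.524 to 0.640) and 0.896 with FR17 (0.854 to 0.941). By this ratio FR17 alone was high, but its denominator is a sum that follows the most abundant genes of the list. The median log2 fold change of the NK lineage list in FR17 against control was 1.20, beside 1.39 for the 10 genes. No marker of T cells, gamma-delta T cells or the NK lineage list was at 0 in a library. Their part in the level of the 10 genes was not tested.

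Against control, the further lists had smaller summed ratios in FR17 than the T cell and NK lineage lists. The sums were 1.34 times control for group 2 innate lymphoid cells, 1.32 for B and plasma cells, 1.29 for macrophages, 1.06 for monocytes, 1.32 for dendritic cells, 1.37 for eosinophils with mast cells and basophils, 1.31 for platelets, 1.27 for endothelium, 1.04 for fibroblasts, 1.21 for lung epithelium and 1.59 for red blood cells. Mast cells can also carry granzyme B, and all 10 markers of eosinophils, mast cells and basophils were higher in FR17 than in control, 6 of them at least 2-fold. The median log2 fold change of this list was 1.33, above the 1.20 of the NK lineage list and the 0.89 of the T cell list. The part of these cells in the Gzmb level was not tested. Mcpt8 had 18 counts in control, 57 with TP5, 32 with sFD17 and 105 with FR17, Cpa3 32, 19, 17 and 90, and Epx 2, 3, 10 and 29. In sFD17 macrophage markers stood at 0.365 times control (0.361 to 0.370), with C1qa at 2843 counts against 12261 and Marco at 145 against 533.

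**Figure D5:**
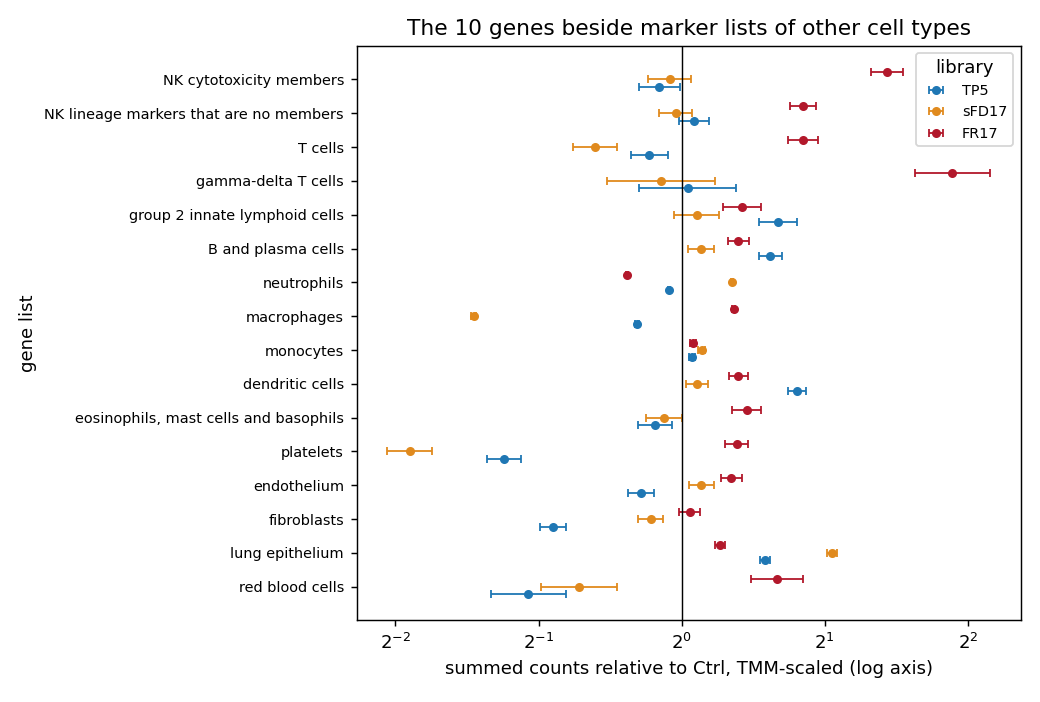
Summed TMM-scaled counts of the 10 genes and of 15 marker lists relative to control on a log axis, for the TP5, sFD17 and FR17 libraries, with exact 95% counting intervals. In FR17 the 10 genes (2.70) and the gamma-delta T cell markers (3.70) lie farthest to the right, and the neutrophil markers (0.768) lie left of 1.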

How the data were processed

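The mRNA of CD11b+Ly6g+ MDSCs from 4 groups was measured, with 1 library per group of 15543071 to 19638228 counts. The deposited values are raw counts of reads, which the authors did not normalize, beside coordinates and a gene length in bases. Per the submitters' processing notes, HISAT2 2.0.5, StringTie 1.3.3b and featureCounts 1.5.0-p3 were used on GRCm38.p6. Whether counting used the strand is not given in the sources used here. The columns were matched to samples by group name, and 0 sample columns stayed unmapped. GENCODE M21 holds 54409 of the identifiers, with coordinates that match for 53462. For the 100 symbols on more than 1 row, the one with the highest total was kept.

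Counts were analysed with R 4.3.3, edgeR 4.0.16 and DESeq2 1.42.0, and plotted with matplotlib 3.10.9. A gene was tested if any library gave it 10 or more counts, which 16367 did. Log2 fold changes used TMM factors and a prior count of 2. Ratios carry exact Clopper-Pearson intervals of the pair of counts, and levels exact Poisson intervals, both at 95%. The exact test of edgeR used a trended dispersion over the 4 libraries as 1 group (common coefficient of variation 0.268), which includes the differences between treatments. The steps were tested on simulated data. A gene without counts was given a floor of 3 counts.

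The 10 genes, the 8 role lists and the 15 marker lists, with 221 symbols in all of which 4 are not in the table used, were chosen with earlier results of these data known, and so were the motifs and the division into granule and receptor genes. Genes were named by rule: all 10; in each role list the 3 with the largest difference between FR17 and control among genes with at least 50 counts in either; the first 3 of each marker list; and the 5 nearest the median. Tyrobp, Fcer1g, Runx3, Cd244a, Slamf7, Klra17 and the granzymes with few or 0 counts were added after their values were seen. Not every named marker is printed. The alternatives were other scaling, prior counts, filters, folds, dispersions, DESeq2's Wald test, adjustment, thinning to the smallest library, and sums without Gzma.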

Additional observations from a re-analysis of the deposited data

How the results depend on the processing

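With 1 library per group, the values below show how far settings move the numbers and not how mice vary. No paired analysis was possible because each group has 1 library. Library size alone moved the median of all genes to 0.05 with TP5, −0.23 with sFD17 and 0.26 with FR17 on the log2 scale, which bounds how far any direction near 0 can be read. Of 240 log2 fold changes of single genes under another scaling, depth or prior count, 236 kept their sign, and the 4 that changed it were in sFD17 against control. In FR17 against control 40 of 40 stayed above 0.

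Under library size alone the median log2 fold change of the 10 genes was 1.63 in FR17 against control, −0.21 in sFD17 against control, 1.93 in FR17 against sFD17, 2.23 in FR17 against TP5 and 0.073 in sFD17 against TP5, and the ratios of summed counts were 3.20, 0.812, 3.94, 3.44 and 0.873. The ratio of sums in sFD17 against TP5 was 1.05 with TMM factors, so library size alone reversed its direction. Library size alone also left 1 gene higher (4.33%) and 1 lower (10.1%) in sFD17 against TP5. With at least 10 counts in every library, which leaves out Klre1, the median in FR17 against control was 1.22, and 1 gene was lower in sFD17. Without Gzma the summed ratio was 2.48 in FR17 against control, 1.03 in TP5 against control, which is the reverse direction, 2.38 in FR17 against sFD17 and 2.40 in FR17 against TP5.

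At a fold of 3, 4 genes were higher in FR17 than in control (1.15% of all genes tested) and 4 than in sFD17 (4.09%), 0 were lower in TP5 (1.36%) or sFD17 (2.49%) than in control, and 0 were higher in sFD17 than in TP5 (2.21%). At a fold of 1.5, TP5 had 1 gene higher (8.98%) and 4 lower (11.8%) than control, and sFD17 had 3 higher (15.4%) and 2 lower (16.4%) than TP5. By the exact test 5 genes were higher in FR17 than in control (0.813%), 5 than in sFD17 (5.64%), 0 lower in TP5 (1.21%) or in sFD17 (2.85%) than in control and 0 higher in sFD17 than in TP5 (2.84%). With a fixed coefficient of variation of 0.4 it called 2 genes in FR17 against control (0.935% of all genes in either direction) and 3 against sFD17 (5.07%). With 0.2 it called 9 (5.99%) and 8 (21.7%), 1 in TP5 against control (5.4%) and 1 in sFD17 against TP5 (9.82%). Benjamini-Hochberg adjustment over all genes left 0 in FR17 against control, where 5 had an unadjusted p under 0.05, 2 against sFD17 (2.26%) and 1 against TP5 (0.0916%). DESeq2's Wald test called 0 in FR17 against control (0.244%) and 3 against sFD17 (6.95%). The causes of these differences were not tested.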
